A study of Mus musculus with 6 samples.

Results

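The molecular clock of the liver and its PAR-bZIP output factors were followed here through 10 genes, Arntl, Clock, Npas2, Per1, Per2, Per3, Cry1, Cry2, Dbp and Tef. They were chosen by name, and every probe whose gene symbol on the array was one of these names was taken, which gave 17 of the 45281 probes. Livers came from 3 mice lacking Creb3l3 (KO) and from 3 wild-type littermates (WT). All 6 mice were male, of C57BL/6 background, fed normal chow and then fasted for 24 h. Each mouse gave 1 sample, hybridised to 1 Illumina WG-6 bead array, so p-values measure the spread between these mice. Creb3l3 encodes CREBH, a hepatocyte transcription factor of the CREB family that is held in the endoplasmic reticulum membrane until cleaved. The deleted part of the gene, the age of the mice and the time of day at which livers were taken are not given in the sources used here. The question put to these genes was whether clock markers were stable from mouse to mouse, and whether they differed between the genotypes.

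In the clock, BMAL1 (the product of Arntl) pairs with CLOCK or its relative NPAS2, binds E-box elements and switches on the Per and Cry genes, whose proteins then inhibit that pair. The same pair activates Dbp and Tef, factors of the PAR-bZIP family that bind D-box elements and pass the rhythm on to liver enzymes. The nuclear receptors REV-ERB and ROR act on Arntl through ROR elements, so that in liver Arntl transcripts peak at roughly the opposite time of day from those of Dbp. Several of these genes also respond to feeding and to glucocorticoids.

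To show the elements through which the members regulate each other, the promoter windows of RefSeq (build GRCm38.p6, from 250 bases before to 50 bases after a transcript start) were searched on both strands for 4 motifs. These were the E-box CACGTG, the D-box as TTACGTAA or TTATGTAA, the ROR element core TAGGTCA and the cyclic AMP response element TGACGTCA. Windows were found for 9 of the 10 members, 14 windows in all. An E-box stood in 4 of the 14 windows, from 3 members, Per1, Cry1 and Tef, and 7.15% of all 32851 windows held one. The D-box was found in 1 of the 14, that of Per3, against 1.06% of all windows. The ROR element core was in 1 of the 14, a window of Arntl, against 2.61% of all. The cyclic AMP response element was in 0 of the 14 windows and in 1.79% of all. A match is a run of letters, not a shown binding site. The stretches that hold the motifs are given 5′ to 3′ on the strand of the gene, with the motif in capitals. The Per1 stretch is chr11:69098763-69098808, plus strand, and its E-box begins at position -166 from the transcript start. That of Cry1 is chr10:85185089-85185134, minus strand, with the E-box at -60. Tef has one at each of 2 starts, at -127 in chr15:81802526-81802571 and at -138 in chr15:81811256-81811301, both on the plus strand. In Per3 the D-boxes begin at -205 and -158 in chr4:151044796-151044890, minus strand. The Arntl stretch is chr7:113207531-113207557, plus strand, where the core begins 31 bases into the transcript.
Per1 E-box: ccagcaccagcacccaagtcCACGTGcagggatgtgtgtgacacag
Cry1 E-box: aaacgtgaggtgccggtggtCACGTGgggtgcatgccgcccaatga
Tef E-box, upstream start: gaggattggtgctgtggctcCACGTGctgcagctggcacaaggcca
Tef E-box, downstream start: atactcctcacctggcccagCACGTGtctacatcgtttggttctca
Per3 D-boxes: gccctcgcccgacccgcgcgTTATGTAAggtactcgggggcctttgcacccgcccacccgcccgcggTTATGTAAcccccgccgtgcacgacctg
Arntl ROR element core: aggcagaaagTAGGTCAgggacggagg

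The arrays were not equally bright. At a detection p under 0.05, the array of KO replicate 3 detected 4302 probes and 0 of the 17 member probes, while the other 5 arrays detected 11846 to 16224 probes and 7 to 11 of the 17. Across probes, which are not independent replicates, Pearson's r between that array and each of the others was 0.676 to 0.697. Values below are therefore from the other 5 arrays, 2 KO and 3 WT, normalized by themselves, and the comparison of all 6 follows. KO replicate 1 was the dimmer of the KO arrays used, with a mean signal of 149 arbitrary units against 246 for KO replicate 2 and 219 to 252 in WT. The targeted gene Creb3l3 fell to a log2 signal of 7.40 ± 0.07 in KO (SD, n = 2), against 9.72 ± 0.02 in WT (SD, n = 3; adjusted p = 0.00271). Its call held under 14 of 16 alternatives and was lost with all 6 arrays (-2.72, adjusted p = 0.574) and under median scaling (adjusted p = 0.175). Where its probe lies relative to the deleted part is not known here. Of 8 hepatocyte markers 7 were tested, all 7 were detected on all 5 arrays, and Tat did not pass the detection filter. Their summed linear signals were 87063 to 87121 in KO and 93810 to 96760 in WT, without overlap, with 3 above 0, 4 below and 0 called. Cyp2e1, one of the brightest of them, stood at -0.47, with 14.22 and 14.13 in KO and 14.71, 14.64 and 14.58 in WT. The other tested hepatocyte markers ran from -0.07 (Apoa1) to 0.17 (Hnf4a, with KO values above all WT values), so the sums do not show a general fall. Markers of Kupffer cells and macrophages lay above 0 in 6 of 6 tested genes, with summed linear signals of 1280 to 1426 in KO and 1139 to 1282 in WT, and 0 were called. The 2 tested lymphocyte and neutrophil markers summed to 83.1 and 223 in KO and to 82.5 to 92.1 in WT, with 0 called. Endothelial markers lay above 0 in 5 of 6 tested genes, with sums of 1599 to 1942 in KO and 1877 to 2066 in WT, and 0 were called. The gene below 0 was Clec4g, the brightest of them, at -0.42 with KO values below all WT values. Stellate cell and fibroblast markers lay above 0 in 3 of 4, with sums of 3977 to 4604 in KO and 3819.8 to 4199 in WT, and 0 were called. The part of these markers in the values below was not tested. In whole liver, fewer cells of a type and less RNA per cell cannot be told apart. Among cholangiocyte markers Krt19, Krt7, Epcam and Cldn7 did not pass the filter, nor did the lymphocyte markers Cd3e and Cd79a. The 2 tested cholangiocyte markers, Sox9 and Spp1, stood at 0.36 and 0.18, and 0 were called. They summed to 563 to 631 in KO and 367 to 583.5 in WT.

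Across the clock no genotype difference was called, and the transcripts that spread most between mice were Dbp, Per1, Arntl and Per2. Of the 17 probes, 10 passed the filter of detection on at least 3 arrays. They stood for 7 genes, Arntl, Clock, Per1, Per2, Cry2, Dbp and Tef. In limma's test 0 of these 10 probes reached an adjusted p under 0.05, and 0 had an unadjusted p under 0.05. Among all 14345 tested probes 0.342% were called. KO and WT values did not separate without overlap for any of the 10, whereas 29.3% of all tested probes had groups that did not overlap. The other members, Npas2, Per3 and Cry1, were detected on 0 of 6 arrays and can be given only as signals near background.

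**Figure D1:**
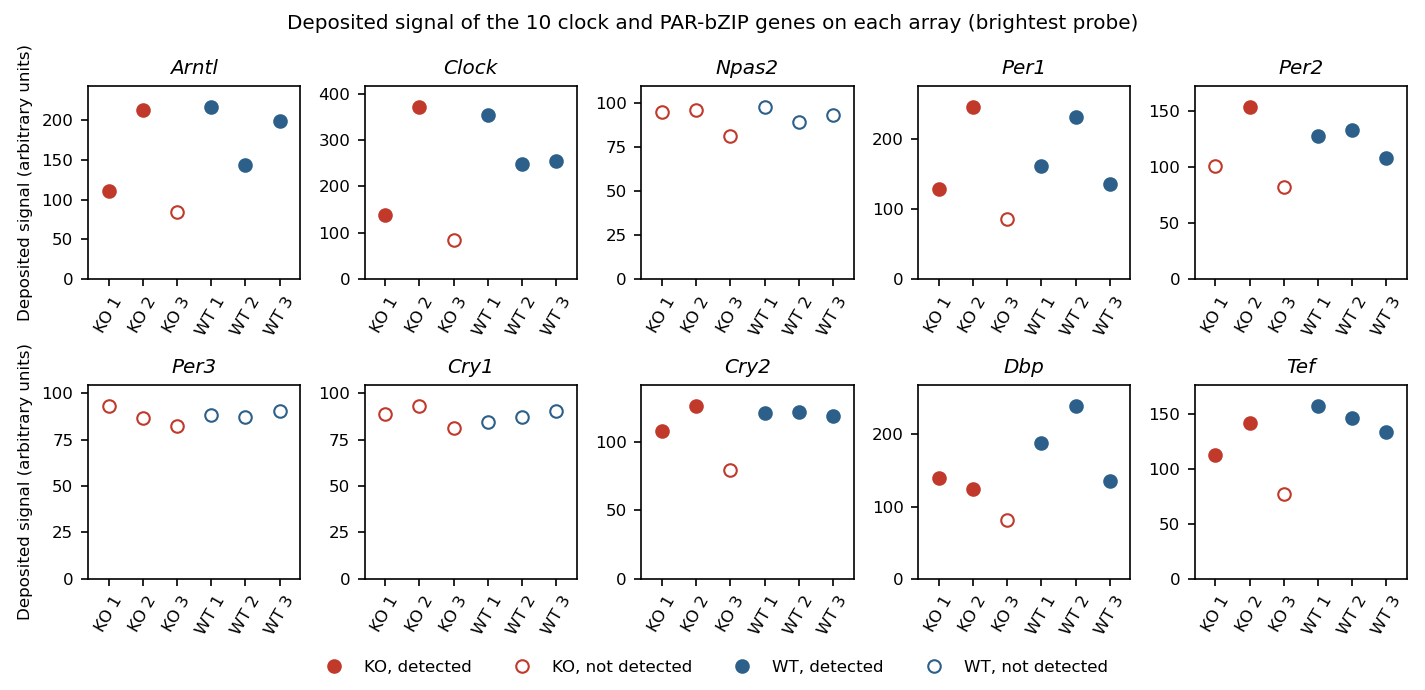
Deposited signal in arbitrary units (vertical axis, linear, from 0) of each of the 10 genes at its brightest probe on each array, KO replicates left of WT replicates. Filled points were detected (p under 0.05) and open points were not. All points of KO 3 are open, as are all points of Npas2, Per3 and Cry1.

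Of the activators, Arntl had a normalized log2 signal of 5.96 and 6.78 in KO replicates 1 and 2, against 6.81, 6.13 and 6.95 in WT replicates 1, 2 and 3. The lowest value was that of KO replicate 1 and the next lowest that of WT replicate 2, so the groups overlapped. The log2 change was -0.26 ± 0.31 (SE; adjusted p = 0.754), with a 95% confidence interval of -0.98 to 0.46. Clock stood at 7.23 and 7.88 in the KO arrays and at 7.74, 7.46 and 7.49 in the WT arrays. The KO mice held both the lowest and the highest value. Its log2 change was -0.0035 ± 0.22 (SE; adjusted p = 0.996; 95% confidence interval -0.51 to 0.51). A dimmer Clock probe stood at -0.08 ± 0.24 and was detected on 1 KO array, and the last Clock probe was detected on 0 of 6 arrays. Npas2, which can take the place of CLOCK, had deposited signals of 94.99, 96.3 and 81.3 in KO and 98.1, 89.3 and 93.5 in WT. None of these signals was detected (detection p of 0.0641 or above), so no fold is given.

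Among the repressors, Per1, an early clock gene that also answers to hormones and cyclic AMP, had log2 signals of 6.87 and 7.09 in KO. In WT they were 6.13, 7.29 and 5.97. Both KO values lay above those of WT replicates 1 and 3 and below that of WT replicate 2. The difference was 0.52 ± 0.37 (SE; adjusted p = 0.584; 95% confidence interval -0.33 to 1.36) at this probe. The second Per1 probe gave 6.02 and 6.29 in KO and 5.35, 6.14 and 5.10 in WT, with a difference of 0.62 ± 0.30 (adjusted p = 0.45; 95% confidence interval -0.06 to 1.31). Both probes thus put the WT mice in the same order, replicate 2 highest and replicate 3 lowest. Without WT replicate 2 the difference at the brighter probe was 0.93 (adjusted p = 0.27), and without WT replicate 3 it was 0.27 (adjusted p = 0.9003). Over all its alternatives adjusted p ran from 0.27 to 0.99. Across all 6 arrays it was -0.20.

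Per2, the partner of PER1 in the repressor complex, had 4.87 and 6.01 in KO, against 5.47, 5.90 and 5.13 in WT. The KO mice lay at either end of all 5 values. Its brighter probe differed by -0.06 ± 0.35 (SE; adjusted p = 0.96; 95% confidence interval -0.86 to 0.74), and the next probe by -0.11 ± 0.26. Both of these probes were detected on all 3 WT arrays but on 1 KO array, that of replicate 2, so the value of KO replicate 1 is close to background. Cry2, a cryptochrome that represses BMAL1 and CLOCK, was among the steadier members. It had 5.77 and 5.45 in KO and 5.31, 5.61 and 5.51 in WT, a difference of 0.13 ± 0.18 (SE; adjusted p = 0.79; 95% confidence interval -0.29 to 0.55). Its sign was negative, at -0.30, across all 6 arrays and, at -0.23, under median scaling. Of the members with no detected probe, Per3 had deposited signals of 93.1, 86.9 and 82.4 in KO and 88.2, 87.4 and 90.2 in WT. Cry1 had 88.9, 93.3 and 81.4 in KO and 84.4, 87.3 and 90.4 in WT. For neither gene does the array give a level above background.

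The output factor Dbp moved most of all. In KO its log2 signal was 7.23 in replicate 1 and 5.41 in replicate 2, and in WT it was 6.50, 7.37 and 5.96. The KO mice differed 3.53-fold from each other, and the highest WT mouse was 2.65-fold above the lowest. Between genotypes the log2 change was -0.29 ± 0.55 (SE; adjusted p = 0.848), with a 95% confidence interval of -1.56 to 0.97, the widest among the tested member probes. It was 0.61 without KO replicate 2 and -1.26 without KO replicate 1, in fits that leave 1 KO array. Over its other alternatives adjusted p ran from 0.653 to 0.979. The second PAR-bZIP member, Tef, had 6.05 and 5.78 in KO and 6.06, 6.18 and 5.90 in WT. Its groups overlapped, and its lowest and highest values were closer together than those of Dbp. The change of Tef was -0.13 ± 0.17 (SE; adjusted p = 0.787; 95% confidence interval -0.53 to 0.27).

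**Figure D2:**
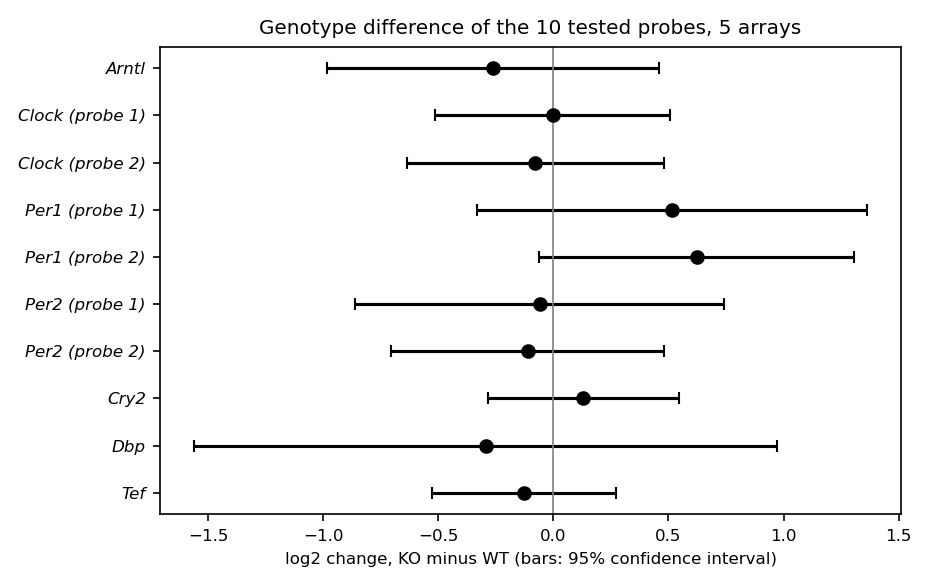
Log2 change, KO minus WT, of the 10 tested probes (horizontal axis; vertical axis, gene and probe in order of brightness) in the 5 arrays, with bars for the 95% confidence interval. All intervals include 0. That of Dbp runs from -1.56 to 0.97 and that of Tef from -0.53 to 0.27.

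With all 6 arrays, the dim array included, limma called 0 of the 10 member probes, and 0% of all 14494 tested probes. At an unadjusted p under 0.05, 558 of the 14494 passed and 0 of the 7 members did at their brightest probe. Log2 changes of the 7 members then ran from -0.95 (Clock) to -0.20 (Per1), all below 0, with adjusted p of 0.653 to 0.87. The median of all tested probes was -0.28 in that comparison. Deposited signals of KO replicate 3 were 76.7 to 85.9 at the brightest probes of these 7 genes, with detection p of 0.254 or above.

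The spread between WT mice was the main feature of the member transcripts. The SD among the 3 WT mice was 0.72 for Per1, 0.71 for Dbp, 0.44 for Arntl and 0.39 for Per2, on the log2 scale. Over all 14345 tested probes the median SD was 0.14, the upper quartile 0.21 and the 95th percentile 0.35. Each of these 4 genes thus lay above that percentile. Clock, Cry2 and Tef, with SDs of 0.15, 0.15 and 0.14, were near the median. Of all tested probes 99.7% had a smaller SD than Per1 or Dbp, 98.1% a smaller one than Arntl and 96.5% a smaller one than Per2. The second probe of Per1 had an SD of 0.54 and that of Per2 0.23. The SDs are descriptions of 3 mice, with no test. The median size of the genotype difference was 0.13 over the 10 member probes and 0.19 over all tested probes. That is a difference of group means, which average over mice, so its size cannot be set directly against the SDs.

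**Figure D3:**
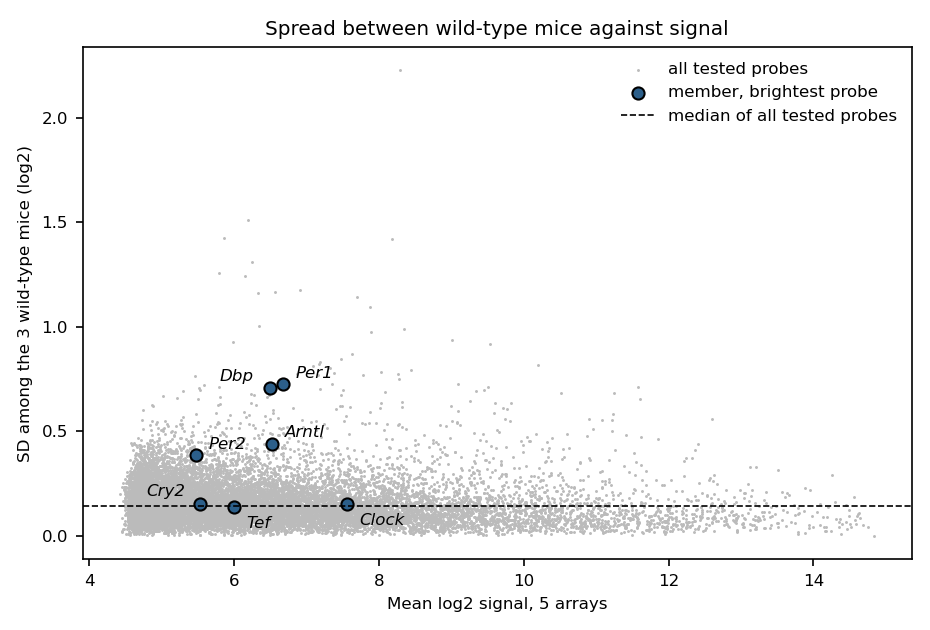
SD of log2 signals among the 3 WT mice (vertical axis) against the mean log2 signal of the 5 arrays (horizontal axis), grey for the 14345 tested probes and blue for the brightest probe of each tested member. Dbp, Per1, Arntl and Per2 lie above 0.35, and Clock, Cry2 and Tef are close to the dashed median of 0.14.

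The WT mice differed in opposite ways for Arntl and Dbp. WT replicate 2 was 0.50 below the WT mean for Arntl and 0.76 above it for Dbp, while WT replicate 3 was 0.32 above for Arntl and 0.65 below for Dbp. WT replicate 1 was 0.18 above and 0.11 below. In KO, replicate 1 lay 0.67 below the WT mean for Arntl and 0.62 above it for Dbp, and replicate 2 lay 0.15 above for Arntl and 1.20 below for Dbp. The difference of the 2 deviations, Arntl minus Dbp, was -1.29 and 1.35 in KO, against 0.29, -1.26 and 0.97 in WT. Both genotypes thus held mice at either end, and the KO range overlapped the WT range. In the deposited signals, before any normalization, WT replicate 2 was again the highest WT mouse for Dbp and the lowest for Arntl, while WT replicates 1 and 3 changed places for Arntl. Dbp had 239.6 in replicate 2, 188 in replicate 1 and 135 in replicate 3, and Arntl had 143 in replicate 2, 217 in replicate 1 and 199 in replicate 3. Between the KO mice, Dbp was brighter in replicate 1 (139) than in replicate 2 (125) although that array was dimmer, and Arntl was 111 against 212.

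Per1, Per2, Cry2 and Tef were also highest in WT replicate 2 among the WT mice, so that 5 of the 7 members peaked there at their brightest probe, against 33.3% of all 10055 tested genes. The next Per2 probe was instead highest in WT replicate 1 (5.49, against 5.43 in replicate 2). Tef was also highest in WT replicate 1 in the deposited signals (157, against 146 in replicate 2) and under median scaling (6.33 against 6.19). In the KO mice the members parted. Dbp, Cry2 and Tef were higher in replicate 1, whereas Arntl, Clock, Per1 and Per2 were higher in replicate 2. Of all tested genes 41.5% were higher in KO replicate 1. Under the other normalizations Dbp kept this order, with KO replicate 1 minus replicate 2 at 1.73 under cyclic loess and 0.35 under median scaling, and 1.82 as reported. Cry2 and Tef kept it under cyclic loess (0.26 and 0.31) but not under median scaling (-0.71 and -0.91). Their deposited signals were also lower in KO replicate 1, at 108 against 126 for Cry2 and 112 against 142 for Tef. Median scaling leaves the signals of KO replicate 1 low throughout, with a median KO difference of -1.18 over all tested probes. The WT range of Dbp was 1.41 as reported, 1.42 under both of these scalings and 0.78 without background correction. In the authors' value table the columns of WT replicates 2 and 3 hold each other's arrays, so which of these mice carries which number is unsettled. Replicate numbers here follow the array tables.

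**Figure D4:**
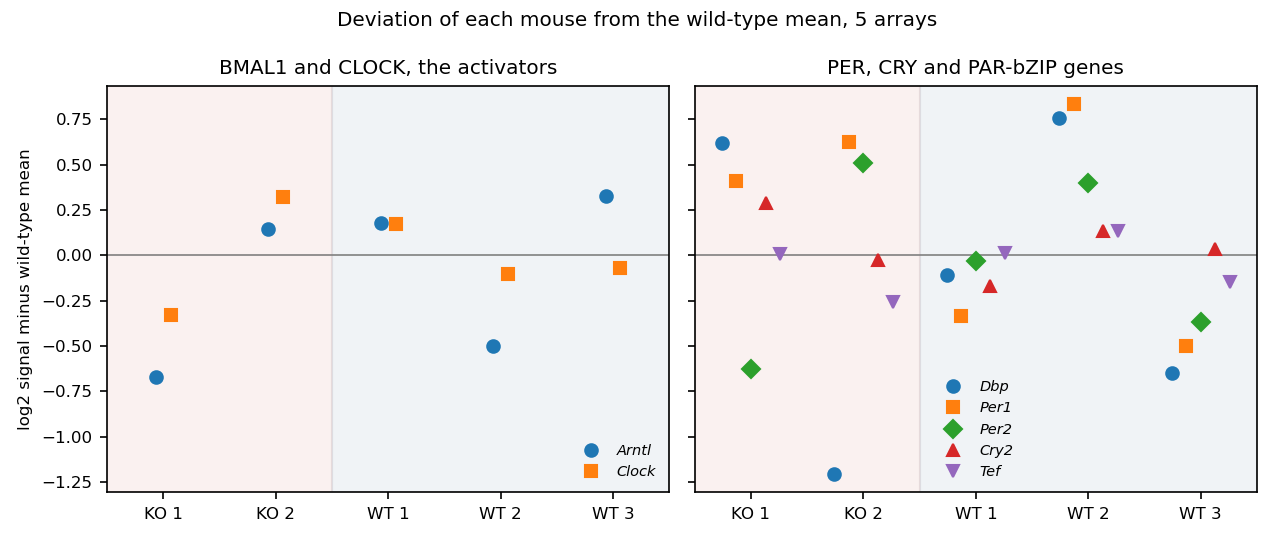
Log2 signal of each mouse minus the WT mean (vertical axis) for the 2 tested activators (left) and for 5 other members (right), with KO mice left of WT mice on the horizontal axis. Arntl is low and Dbp high in KO 1 and WT 2. In KO 2 Dbp lies 1.20 below the WT mean.

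The genes whose profile over the 5 arrays came nearest to that of Dbp were sought among the 10055 tested genes, by the root-mean-square difference of gene-centred log2 signals. The closest was Upp2, a uridine phosphorylase of liver, at 0.18, with 9.57 and 8.32 in KO and 9.07, 9.98 and 8.54 in WT. LOC100047427 at 0.24, Tlcd2 at 0.29, 2610528J11Rik at 0.34 and BC048644 at 0.34 came next. For Arntl the closest were Cdc123 at 0.06, Ints1, Dixdc1, Setdb1 and Mbip, the last at 0.09. Cdc123 had 4.42 and 5.32 in KO and 5.44, 4.75 and 5.50 in WT. These likenesses rest on 5 arrays and say nothing of the reasons.

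Among the other genes of the clock, counts were taken over fixed lists, each gene at its brightest probe. The median log2 change of all 10055 tested genes was -0.01. Of the 6 genes of the REV-ERB, ROR and NFIL3 loop, 4 were tested, 0 were called and 4 lay below 0, with a median of -0.27. Nr1d1, which encodes REV-ERBα, a repressor of Arntl, had 6.04 and 4.62 in KO and 5.25, 5.79 and 5.42 in WT. As for Dbp, KO replicate 1 was the higher KO mouse and WT replicate 2 the highest WT mouse. The changes of Nr1d1, Nr1d2 (REV-ERBβ) and Rora were -0.15, -0.39 and -0.12, with adjusted p of 0.886, 0.49 and 0.801.

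Of 6 further repressors and PAR-bZIP factors, 4 were tested and 0 called, with a median of 0.14. The third PAR-bZIP factor, Hlf, did not pass the filter. Bhlhe40 (DEC1, a repressor at E-boxes), which the array calls Bhlhb2, had 8.44 and 8.498 in KO and 7.86, 8.16 and 8.11 in WT. Its change was 0.43 ± 0.17 (SE; adjusted p = 0.39), with the KO values above all WT values, but its sign turned across all 6 arrays (-0.22) and under median scaling (-0.27). Ciart (Gm129 on the array), a repressor of the BMAL1 and CLOCK pair, stood at 0.43, and Cipc (2310044G17Rik on the array), another inhibitor of that pair, at -0.29. Timeless stood at -0.16. Clock kinases and ubiquitin enzymes had 6 tested genes of 11, 0 called and a median of -0.22. Csnk2a1, a casein kinase 2 subunit, stood at -0.36 and was detected on neither of the KO arrays. Btrc, a ubiquitin ligase subunit that recognises PER proteins, stood at -0.27, Usp2, a deubiquitinase under clock control, at -0.32 and Gsk3b at -0.17. The second Btrc probe had the opposite sign, 0.16.

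Of 13 genes known as rhythmic in liver, 11 were tested, 1 was called lower (Insig2), 10 did not pass, and the median was -0.34. Of all 14345 tested probes 0.342% were called. Insig2, an endoplasmic reticulum protein that restrains SREBP processing, had 10.52 and 10.96 in KO and 11.99, 12.00 and 11.99 in WT. Its log2 change was -1.25 ± 0.18 (adjusted p = 0.0412), and its other probes stood at -1.05 (adjusted p = 0.0579) and -1.53 (adjusted p = 0.0227). Its WT spread was small where that of Dbp was large. The call was lost under 10 of 16 alternatives, with adjusted p over all of them from 0.00314 to 0.776. Among these were the omission of WT replicate 1 (adjusted p = 0.191), 2 (0.199) or 3 (0.23). The 16 include the omission of KO replicate 1 (-1.02) or 2 (-1.48), which leaves 1 KO array with no spread of its own. Elovl3, a fatty acid elongase, stood at -1.67 ± 0.48 (SE; adjusted p = 0.278), with 7.97 and 9.57 in KO and 11.09, 9.89 and 10.32 in WT. Noct, which encodes nocturnin (Ccrn4l on the array), had 6.85 and 7.11 in KO and 5.72, 6.87 and 5.73 in WT. Like Per1 it was highest among WT mice in replicate 2, and the groups overlapped. Its change was 0.87 ± 0.34 (adjusted p = 0.393), and -0.02 across all 6 arrays. Rgs16, a regulator of G protein signalling, stood at -0.79 ± 0.32 (adjusted p = 0.395).

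Targets ascribed to the PAR-bZIP factors had 8 tested genes of 10, with 0 called and a median of -0.33. Cyp7a1, the rate-limiting enzyme of bile acid synthesis, had 7.63 and 8.04 in KO and 8.89, 8.43 and 8.54 in WT, a difference of -0.79 ± 0.21 (SE; adjusted p = 0.241). Por, the electron donor of cytochromes P450, had 8.89 and 9.47 in KO and 9.85, 10.18 and 9.88 in WT (-0.79 ± 0.22; adjusted p = 0.255). The nuclear receptor gene Nr1i3 (CAR) stood at -0.35, and the carboxylesterase Ces1g (Ces1 on the array) at -0.36. These 4 were named for having the smallest p of the list in this same comparison. All 4 had KO values below every WT value at their brightest probe, and none passed the test. Of the further Nr1i3 probes, the dimmest had the opposite sign, 0.11, and the others stood at -0.45 and -0.29. Cyp2b10, a cytochrome P450 induced through CAR and named here after its values were seen, had KO values of 11.07 and 11.15 above the WT values of 10.90, 11.06 and 10.37. In all, 5 of the 8 tested genes did not overlap between genotypes, against 29.3% of all tested probes.

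Genes that answer to glucocorticoids and fasting had 10 tested of 11, with 1 called lower (Pck1) and 9 not passed. Of these genes 5 lay above and 5 below 0, with a median of -0.10. The share called among all 14345 tested probes was 0.342%. Pck1, the gluconeogenic enzyme, had 8.83 and 9.39 in KO and 10.77, 10.76 and 11.0025 in WT. Its log2 change was -1.73 ± 0.21 (adjusted p = 0.0227), and it lost the call under 6 of 16 alternatives (adjusted p up to 0.776), among them the omission of WT replicate 1 (0.103), 2 (0.134) or 3 (0.11). The insulin-suppressed Igfbp1 stood at -1.29 ± 0.32 (adjusted p = 0.224). Sgk1 and Tsc22d3 (GILZ), known as glucocorticoid-induced genes, stood at 0.72 ± 0.19 and 0.65 ± 0.19, with adjusted p of 0.241 and 0.294. Both had KO values above all WT values, while Pck1 and Igfbp1 had KO values below all WT values. In this list 6 of 10 did not overlap between genotypes, against 29.3% of all tested probes. Among the 6 was Zbtb16, with 4.40 and 4.43 in KO and 4.76, 5.41 and 4.85 in WT. It was detected on neither of the KO arrays used and passed the filter through the WT arrays alone. Its lack of overlap was therefore in part set by the filter. The signs of Sgk1 and Tsc22d3 turned under median scaling, to -0.03 and -0.10. Of the CREB-responsive and immediate early genes, 7 of 10 were tested and 0 called, with 6 below 0 and a median of -0.59. WT replicate 2 was the lowest WT mouse for 6 of these 7, against 3831 of all 10055 tested genes. Egr1, an immediate early factor, had 8.55 and 8.91 in KO and 10.54, 9.02 and 10.67 in WT (-1.35 ± 0.45, adjusted p = 0.341). With a replicate block in which WT replicates 2 and 3 are exchanged, Egr1 was called lower (-1.88, adjusted p = 0.0107), and its adjusted p over all alternatives ran from 0.0107 to 0.803. Junb, Fos and Dusp1 stood at -0.85, -1.30 and -0.38, with adjusted p of 0.311, 0.493 and 0.495.

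**Figure D5:**
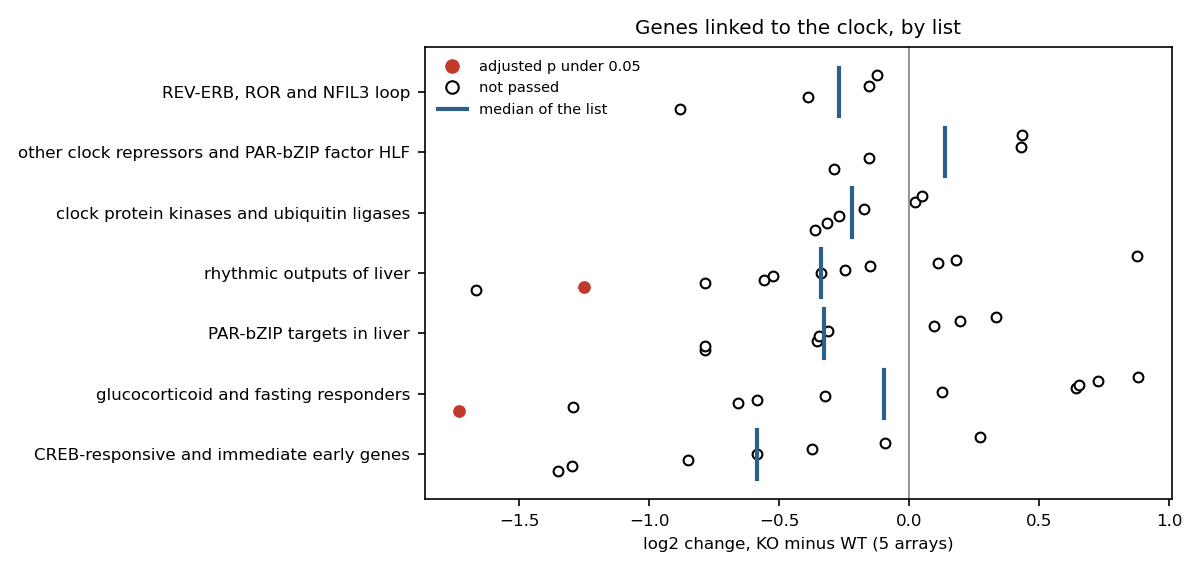
Log2 change, KO minus WT, in the 5 arrays (horizontal axis) of each tested gene of the 7 lists (vertical axis), with a bar at the median of a list. Red points passed an adjusted p under 0.05. These are Insig2 at -1.25 and Pck1 at -1.73, and the other points did not pass.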

How the data were processed

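For each array the deposited table gives an intensity per probe, headed average signal, whose values show no normalization or background subtraction, and a detection p-value made by the authors' software (BeadStudio 3, per the submitters' processing notes). The authors' value table also holds deposited intensity values. By their agreement with the array signals, they are quantile-normalized on a linear scale, and no source used here names the method. The neqc function of limma 3.58.1 (R 4.3.3) inferred the background from the detection p-values, added an offset of 16, quantile-normalized and took log2. Tests used probes detected (p under 0.05) on at least 3 arrays, with genotype as the only term in lmFit and eBayes, two-sided, and Benjamini-Hochberg adjustment over all tested probes (threshold 0.05). The number of arrays limits the precision. A gene was read at its brightest probe. The other probes of Cry2 and Per2 that were detected on 0 of 6 arrays, 1 each, are not described.

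The members, the gene lists, the omission of KO replicate 3 and the rule for named genes were chosen with earlier results of these data known. By that rule the member probes are given, then Creb3l3, up to 4 genes of a pathway list with the smallest p, any called gene of a list, and the 5 nearest profiles to Dbp and Arntl. Some genes that the rule names are not reported here. Symbols were updated through RefSeq tables of GRCm38.p6, and 9504 of 45281 probes kept an unmatched name. The steps were tested on simulated data. Figures were drawn with matplotlib 3.10.9.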

Additional observations from a re-analysis of the deposited data

How the results depend on the processing

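Of 7 tested members, 0 were called in the 5 arrays and 0 under each of 16 alternatives, and their precision is limited by 5 arrays and by signals near background for Per2. The count of called probes in the 5 arrays, 49, was 0 with all 6 arrays, 83 under cyclic loess, 4 under median scaling, 76 with the authors' value table, 89 without background correction, 1 without a detection filter, 122 with a trended and robust variance and 32 with array weights. It ran from 9 to 2234 when single mice were left out, the highest without KO replicate 2. The count of 0 in the 6 arrays was 3 under cyclic loess, 1 with the authors' table, 5 with a trended and robust variance and 2832 with array weights, and 0 to 49 without single mice, the highest without KO replicate 3. The cause of these shifts was not tested. Median scaling moved the median log2 change of all probes to -0.42, against -0.03, so its values are read against that shift.

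Samples with the same replicate number did not deviate together. Correlations of deviations from the group means were -0.05, -0.05 and 0.04 for numbers 1, 2 and 3 over 6 arrays, the dim array included. Over the 5 arrays they were -0.13 for number 1 and -0.13 for number 2. With 2 KO arrays the deviations of one mirror those of the other, and the numbers of WT replicates 2 and 3 are unsettled. The check therefore cannot decide whether the numbers pair the mice. With a replicate block 47 probes were called in the 5 arrays, and 56 with WT replicates 2 and 3 exchanged. The block with 2 and 3 exchanged turned Per2 (0.14) and Dbp (0.085), and called Egr1. Without KO replicate 1 or 2 the KO group was 1 array, with no spread of its own, so calls from those fits are not read. The log2 changes without KO replicate 2 were 0.82 for Ciart, -2.47 for Elovl3, -0.996 for Cyp7a1, -1.08 for Por and -1.87 for Igfbp1. In the 5 arrays they were 0.43, -1.67, -0.79, -0.79 and -1.29, and none was called. Without KO replicate 1 they were 0.0016, -0.86, -0.58, -0.495 and -0.72.

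The signs of member changes turned as follows. With all 6 arrays Per1 was -0.20 and Cry2 -0.30, and among list genes Bhlhe40 was -0.22, Csnk2a1 0.55 and Noct -0.016. Under median scaling Per1 was -0.024, Cry2 -0.23, Bhlhe40 -0.27, Sgk1 -0.031 and Tsc22d3 -0.10. Clock was 0.013 under cyclic loess, 0.0050 with the authors' table, 0.0042 without background correction and 0.0017 with array weights. Per2 was 0.20 under cyclic loess and 0.039 with array weights. When single mice were left out, the changes ran from -0.66 to 0.15 for Arntl, -0.33 to 0.32 for Clock, -0.59 to 0.54 for Per2, -0.030 to 0.28 for Cry2, -1.26 to 0.61 for Dbp, -0.27 to 0.0074 for Tef, -0.96 to 0.54 for Nr1d1, -0.22 to 0.088 for Timeless and -0.44 to 0.060 for Gsk3b.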

Other observations

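A second Tef probe, detected on the array of WT replicate 2 and on no other, had deposited signals of 93.7, 92.0 and 88.65 in KO and 93.2, 101.5 and 87.3 in WT. On KO replicate 3, with a detection p of 0.084, its log2 signal after joint normalization of the 6 arrays was 6.42, while the 5 other arrays gave 4.24 to 4.75. On the same array the brightest Tef probe stood at 4.15, against 5.62 to 5.99 on the other 5.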
